A study of Mus musculus with 4 samples.

Results

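The Siah genes encode RING-type E3 ubiquitin ligases, and the mouse genes Siah1a, Siah1b and Siah2 were followed here in adult mouse mesoangioblasts (AdmMABs) with and without silencing of PW1/Peg3. Members were taken by name from the annotation of the array. Each gene had 1 probe set with its symbol alone, so 3 of the 21789 probe sets with exactly 1 symbol (35556 rows in all) belonged to the family, and 0 probe sets were shared with another symbol. AdmMABs are progenitors associated with vessels and able to form skeletal muscle. The cells came from the tibialis anterior of adult male C57/BL6 mice and were a polyclonal population kept proliferating in serum-rich medium. The shPW1 group had received a short hairpin RNA against PW1, expressed by a lentivirus from the H1 promoter, and the Ctl group a lentiviral control hairpin with no match in the mouse. The methods of the study list a control hairpin in a different plasmid from that of shPW1. Which vector the Ctl arrays carried is not settled, so the vector may differ between the groups. Each group had 2 arrays (Affymetrix Mouse Gene 1.0 ST), made from 2 RNA extractions of the same transduced cells, so a p-value here is read against the spread of repeat extractions alone, and that spread may be purely technical. One hairpin against PW1 was used, and effects of that hairpin or of its vector cannot be told apart from those of PW1 loss.

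Siah proteins are the mammalian relatives of the Drosophila protein Sina, which is needed for the fate of the R7 photoreceptor. They bind an E2 enzyme through the RING finger and a substrate through the C-terminal domain, and mark that substrate for the proteasome. Siah1 is known as a partner of PW1 in p53-dependent cell death and as a ligase for beta-catenin, and Siah2 is known for the degradation of the prolyl hydroxylases that control the hypoxia-inducible factor (HIF). The mouse has a pair of Siah1 genes that encode nearly the same protein, an autosomal one (Siah1a) and one on the X chromosome (Siah1b). All values below are RNA levels, whereas the ligases act on proteins.

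The promoters are shown first because a window of Siah1b, the called member, holds a match to the DNA motif of PW1. Of the 3 genes, 2 (Siah1a and Siah1b) matched the RefSeq promoter table (build GRCm38.p6), which gives 250 bases before and 50 bases after each annotated start. Siah1b has 2 annotated starts 358 bases apart, and all 3 windows lie on the minus strand. Capitals mark a match to the DNA motif of PW1 named in the study (14 bases, some of them free) or to ACGTG, both searched on both strands. ACGTG is a form of the hypoxia response core, and other forms, such as GCGTG, were not searched.
Siah1a, chr8:86745957-86746256: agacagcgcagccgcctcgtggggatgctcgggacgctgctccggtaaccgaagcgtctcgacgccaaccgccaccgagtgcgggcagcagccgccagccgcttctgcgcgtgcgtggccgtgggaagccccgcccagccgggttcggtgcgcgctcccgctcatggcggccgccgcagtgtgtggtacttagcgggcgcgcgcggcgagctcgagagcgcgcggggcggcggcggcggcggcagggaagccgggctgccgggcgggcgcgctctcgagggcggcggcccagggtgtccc
Siah1b, upstream start, chrX:164076444-164076743: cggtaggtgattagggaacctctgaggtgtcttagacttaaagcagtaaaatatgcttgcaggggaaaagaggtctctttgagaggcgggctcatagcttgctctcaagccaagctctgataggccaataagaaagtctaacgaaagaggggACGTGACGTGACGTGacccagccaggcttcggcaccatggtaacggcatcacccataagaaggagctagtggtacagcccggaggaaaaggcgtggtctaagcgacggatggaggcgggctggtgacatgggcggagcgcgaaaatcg
Siah1b, downstream start, chrX:164076086-164076385: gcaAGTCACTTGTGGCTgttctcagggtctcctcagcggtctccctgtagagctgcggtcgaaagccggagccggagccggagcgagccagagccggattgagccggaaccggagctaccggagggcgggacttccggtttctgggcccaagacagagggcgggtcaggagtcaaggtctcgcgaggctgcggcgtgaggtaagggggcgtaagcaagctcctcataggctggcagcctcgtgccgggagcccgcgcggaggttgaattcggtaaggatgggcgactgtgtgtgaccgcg

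The window of the downstream Siah1b start held 1 match to the PW1 motif (AGTCACTTGTGGCT, chrX:164076369-164076382). Its first base lay 247 bases before that start and 111 bases after the upstream one. The windows of Siah1a and of the upstream Siah1b start held 0. Such a match was rare, being present in 159 of the 32851 promoter windows of the table (0.484%). The upstream Siah1b window held 3 copies of ACGTG in a row, beginning 98 bases before the start, against 0 copies in each of the other 2 windows. At least 1 copy was present in 19.6% of all promoter windows and at least 3 in 1.73%, where a match on either strand was counted. The p53 response element, a pair of half-sites with a short spacer, was found in none of the 3 windows and in 0.0731% of all. A single p53 half-site lay in the downstream Siah1b window, apart from the PW1 match, and 8.36% of all windows held one. The Siah1a window was richer in G and C (77.7%) than the upstream (54.0%) and downstream (65.7%) Siah1b windows, with a median of 52.7% over the table. A match of letters is a description only and does not show that a factor binds there.

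Peg3, the gene of PW1, was measured first as a check of the labels. On the log2 (RMA) scale it read 6.22 and 6.47 in the shPW1 arrays, against 8.67 and 8.70 in the Ctl arrays. The change, given throughout as shPW1 minus Ctl on the log2 scale, was -2.34 for Peg3 (SE 0.10, adjusted p = 0.00428 by limma). Over all probe sets tested, 1075 were higher (4.93%) and 908 were lower (4.17%) in shPW1 at an adjusted p under 0.05, the threshold for every call below. In either direction 9.1% were called. The arrays of the groups did not overlap for 55.5% of the probe sets, with shPW1 higher for 27.5% and lower for 28%. The methods' own thresholds, an analysis of variance p under 0.05 and a fold change over 1.2, without adjustment, took 6.35% as higher and 5.35% as lower. With any 1 of the 4 arrays left out limma called 0 probe sets, while 3790 to 5379 still had an unadjusted p under 0.05, so every call below was lost in each of these 4 fits. A test of all rows also ended each call among the substrate, E2, HIF, p53 and Wnt lists. The means of 15 endothelial and haematopoietic markers lay between 3.10 and 5.96 in shPW1 and between 3.30 and 6.02 in Ctl. Of 13 mesenchymal and mural markers 11 lay above that range in both groups, up to Vim and Acta2, while Rgs5 and Alpl did not. Of 6 myoblast markers 4 were lower in shPW1, among them Myod1 (change -1.72), and of 13 mesenchymal and mural markers 4 were lower and 1 was higher. Their part in the results below was not tested.

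Siah1b was higher in shPW1 and was the only called member of the family. Its probe set (10607747, on chromosome X) read 7.63 and 7.73 in the shPW1 arrays, against 7.28 and 7.31 in the Ctl arrays. Both shPW1 arrays lay above both Ctl arrays, with a gap of 0.33 between the nearest pair, which was wider than the difference between replicates (0.09 in shPW1 and 0.03 in Ctl). Means were 7.68 ± 0.07 in shPW1 and 7.29 ± 0.02 in Ctl (SD, n = 2 each). The change of 0.39 on the log2 scale corresponded to a rise of 30.7% in RNA (1.31-fold, 95% interval 1.16 to 1.47, log2 SE 0.06, limma adjusted p = 0.0351). The change was modest beside those of the whole array: 919 probe sets, Siah1b included, had a log2 fold change at least as high, and 8.34% of all probe sets had one at least as large in either direction. With 1 array left out it kept its direction, at 0.34 to 0.43, but the adjusted p was 0.12 without shPW1 replicate 1, 0.149 without shPW1 replicate 2, 0.194 without Ctl replicate 1 and 0.208 without Ctl replicate 2. A test of every row of the table also ended the call (adjusted p = 0.112). By the methods' thresholds Siah1b passed (unadjusted p = 0.0156). In bulk RNA such as this, more cells of a type and more RNA per cell cannot be told apart.

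**Figure D1:**
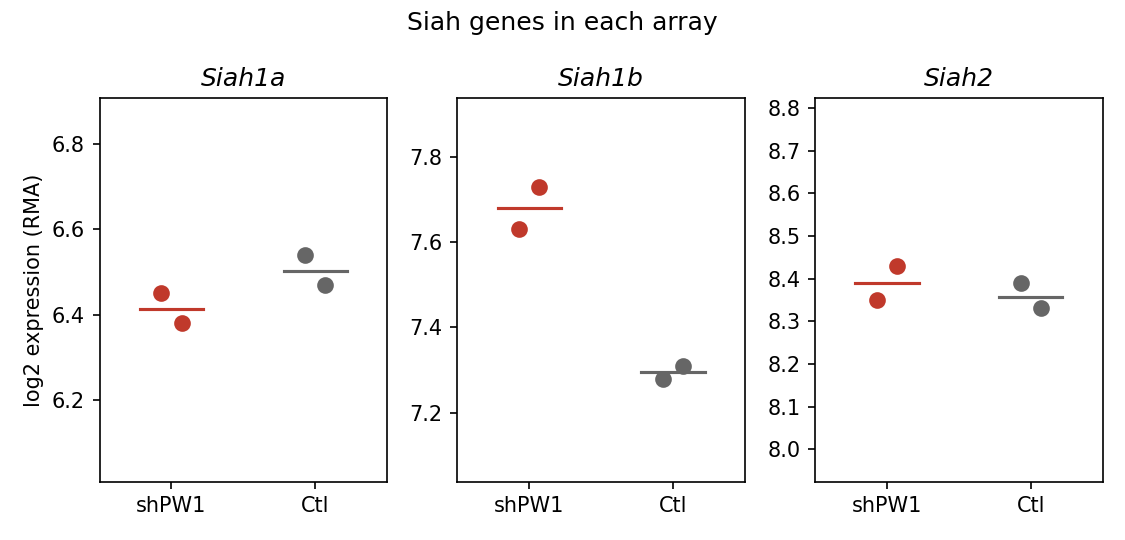
Log2 expression (RMA, vertical axis) of Siah1a, Siah1b and Siah2 in the 2 shPW1 arrays (red) and the 2 Ctl arrays (grey); each point is one array, each line the mean of a group, and the 3 axes span the same range. The shPW1 arrays lie at 7.63 and 7.73 for Siah1b, above Ctl arrays at 7.28 and 7.31, while for Siah2 the groups overlap.

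Siah1a, the autosomal paralog, was slightly lower in shPW1 and was not called. Its probe set (10580452, on chromosome 8) read 6.45 and 6.38 in the shPW1 arrays, against 6.54 and 6.47 in the Ctl arrays. The groups did not overlap, but the gap of 0.01 was far smaller than the difference between replicates (0.07 in each group). Means were 6.41 ± 0.05 in shPW1 and 6.50 ± 0.05 in Ctl (SD, n = 2 each). The change of -0.09 (95% interval -0.26 to 0.08, adjusted p = 0.459) missed the threshold. The upper end of this interval lay below the lower end of that of Siah1b, which ran from 0.22 to 0.55. Both intervals rest on the spread of repeat extractions alone and are not a test of the difference between the genes. The coding sequences of these paralogs are close, and signal shared between their probe sets, if any, was not tested.

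Siah2, the ligase linked to the hypoxia response, was not called. Its probe set (10498332, on chromosome 3) read 8.35 and 8.43 in the shPW1 arrays, against 8.39 and 8.33 in the Ctl arrays. The arrays of the groups overlapped, with means of 8.39 ± 0.06 in shPW1 and 8.36 ± 0.04 in Ctl (SD, n = 2 each). The log2 fold change was 0.03 (95% interval -0.14 to 0.21, adjusted p = 0.80), which in folds ran from 0.909 to 1.15. Without shPW1 replicate 2 the value was -0.01, so its sign depended on 1 array.

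The changes of the members were set against each other within each array, which removes what an array does to all probe sets alike. The log2 difference of Siah1b over Siah1a was 1.18 and 1.35 in the shPW1 arrays, against 0.74 and 0.84 in the Ctl arrays. Only the shift between groups can be read from these numbers, since the levels of different probe sets are not on a common scale. The change of Siah1b exceeded that of Siah1a by 0.47 on the log2 scale. The log2 difference of Siah2 over Siah1b was 0.71 in both shPW1 arrays, against 1.10 and 1.02 in the Ctl arrays, a shift of -0.35. The change of Siah2 exceeded that of Siah1a by 0.12. For each of the 3 pairs the exact two-sided permutation test gave p = 0.333 (0.333 also after adjustment over the 3 pairs), which is the smallest value that 2 arrays against 2 allow, so no pair could pass a threshold of 0.05. With each array left out, the shift between Siah1b and Siah1a stayed between 0.39 and 0.56.

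**Figure D2:**
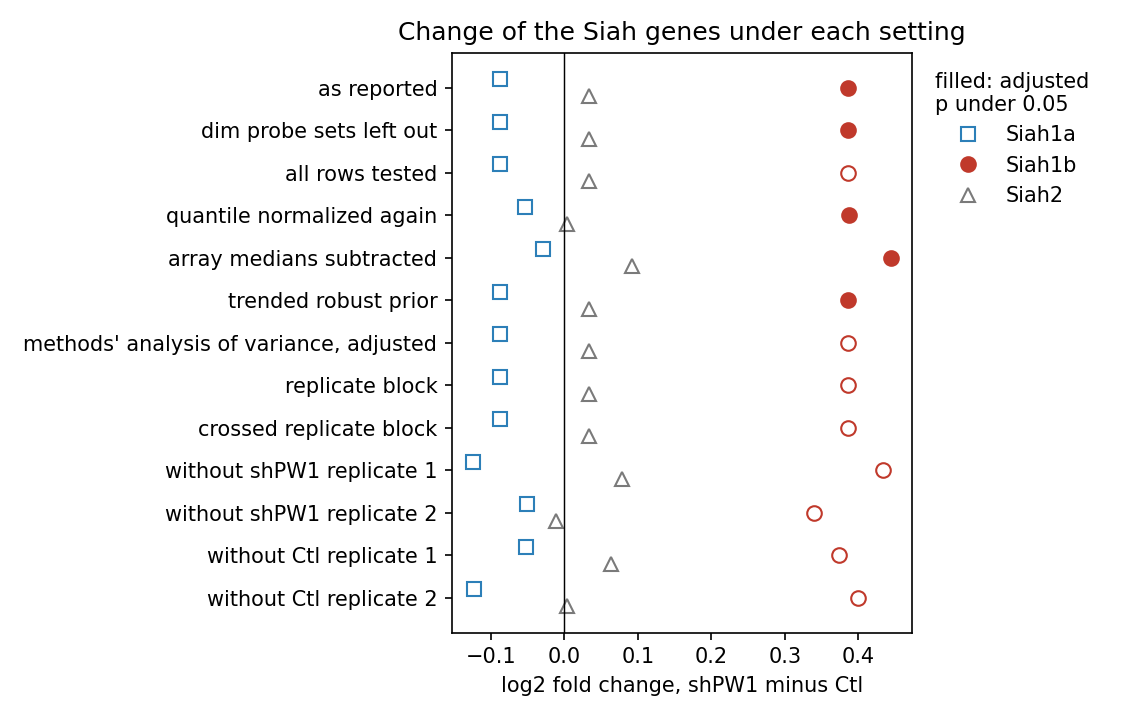
Log2 fold change (shPW1 minus Ctl, horizontal axis) of Siah1a (squares), Siah1b (circles) and Siah2 (triangles) under each way of processing that gave an adjusted p (rows). Filled symbols had an adjusted p under 0.05. The methods' own thresholds, which are without adjustment and which Siah1b passed, are not shown. Siah1b lies between 0.34 and 0.44 in every row but is filled in 5 of the 13, and Siah2 lies near 0.

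Relatives outside the ligase family were not called. Siah3, a related gene with a Siah-type substrate domain, read 6.03 and 5.78 in the shPW1 arrays, against 6.13 and 6.15 in the Ctl arrays. The change of -0.24 (SE 0.10, adjusted p = 0.216) missed the threshold. Cyhr1, a cysteine- and histidine-rich protein gene, read 8.26 and 8.33 in the shPW1 arrays, against 8.46 and 8.41 in the Ctl arrays (change -0.14, adjusted p = 0.227).

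The genes on either side of Siah1b were read as well, to show whether nearby genes shared its change. Its 4 nearest measured protein-coding neighbours were Ap1s2, which encodes a clathrin adaptor subunit (change 0.21, adjusted p = 0.124, groups not overlapping), the mitochondrial carbonic anhydrase Car5b (-0.05), the amino acid transporter partner Cltrn (-0.14) and the Tec family kinase Bmx (-0.08). Ap1s2 was called when the dimmer probe sets were dropped (adjusted p = 0.0261) and with the trended robust prior (adjusted p = 0.0282). Of the 12 nearest neighbours of the 3 Siah genes limma called 0, with log2 fold changes between -0.32 and 0.21 and 3 unadjusted p-values under 0.05. By the methods' analysis of variance and thresholds 1 of the 12 passed. With 9.1% of all probe sets called and 27.7% at an unadjusted p under 0.05, these counts lay near the background.

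Genes that share the PW1 motif with Siah1b were counted over the expression test. Of 82 tested genes with a match in a promoter window, 6 were higher in shPW1 (7.32%) and 3 were lower (3.66%), against 4.96% and 4.37% of all 15614 tested genes with a promoter window. The median log2 fold change was -0.01 in both. The higher ones, named after their values were seen, included the zinc finger gene Zfp709 (0.94), Maff, which encodes a small Maf transcription factor (0.86), and the intramembrane protease gene Sppl2b (0.61), beside Siah1b. Zfp709 was dim, at 4.01 and 4.07 in the shPW1 arrays against 3.21 and 2.98 in the Ctl arrays. The lower ones were Tle6 (-0.29), Sema6c (-0.36) and Tmem184a (-0.45), of which Sema6c and Tmem184a were dim. The shares of the matched genes lay close to those of all genes, and the counts are not read as a result about the motif.

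Traf2, an adaptor of TNF receptor signalling that binds PW1 and is a target of Siah2, read 8.87 and 9.02 in the shPW1 arrays, against 8.74 and 8.71 in the Ctl arrays. The change of 0.22 (SE 0.07, adjusted p = 0.15) missed the threshold. It passed at an adjusted p of 0.0397 when the dimmer probe sets were dropped and of 0.0201 with a trended robust prior, settings that called 39.5% and 21.6% of all probe sets they tested. Bax, another PW1 partner, and Trp53 lacked a probe set of 1 symbol and were not analysed here.

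No gene of the complex through which Siah1 degrades beta-catenin was called. It links Siah1 by way of the Siah-interacting protein (Cacybp) to Skp1 and the F-box-like protein Ebi (Tbl1x), with Apc as scaffold. Of its 7 measured genes limma called 0, and 0 had an unadjusted p under 0.05 or passed the methods' thresholds. With 9.1% of all probe sets called, a count of 0 among 7 genes lay near the background. The log2 fold changes ran from -0.11 for Tbl1xr1 and -0.10 for Apc to 0.13 for Cacybp, with 0.03 for Skp1, -0.08 for S100a6, a Cacybp-binding calcium sensor, and a value for Tbl1x that rounds to zero at -0.0032. Cacybp, at 11.88 and 11.94 in the shPW1 arrays against 11.80 and 11.76 in the Ctl arrays, was called under 1 setting, the trended robust prior (adjusted p = 0.00794). Beta-catenin itself (Ctnnb1) read 10.99 and 11.06 in the shPW1 arrays, against 11.08 and 11.07 in the Ctl arrays (change -0.05, adjusted p = 0.649), and the sign was turned (0.0061) by subtracting the median of each array. The median of the complex was -0.05, against -0.01 for all probe sets tested.

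Of 15 measured Wnt and beta-catenin target genes 2 were higher and 0 were lower (13.3% called, near the 9.1% of all probe sets). Bmp4, a growth factor of the TGF-beta family, read 7.72 and 7.78 in the shPW1 arrays, against 6.90 and 6.87 in the Ctl arrays (change 0.86, adjusted p = 0.00742). Ccnd1, which encodes cyclin D1, read 11.79 and 11.83 in the shPW1 arrays, against 11.29 and 11.35 in the Ctl arrays (change 0.49, adjusted p = 0.0209). The feedback inhibitor Axin2 (0.04), a widely used readout of the pathway, and the transcription factor gene Lef1 (-0.04) were not called. Axin2 was dim, at 5.46 and 5.26 in the shPW1 arrays against 5.27 and 5.38 in the Ctl arrays. Myc (0.30, adjusted p = 0.0509) missed the threshold, and the changes of the list ran from -0.14 to 0.86. The median of the list was 0.06.

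E2 enzymes hand ubiquitin to RING ligases such as Siah. Of 10 measured genes of the Ube2d and Ube2e families and the Ubc13 complex, 1 was higher and 0 were lower, which as a share (10%) lay near the 9.1% of all probe sets. That gene was Ube2v2, the Mms2 partner of Ubc13 in the making of lysine-63-linked chains, with a log2 expression of 9.53 and 9.57 in the shPW1 arrays, against 9.04 and 9.01 in the Ctl arrays (change 0.52, SE 0.06, adjusted p = 0.018). Ubc13 itself (Ube2n) had 0.27 (adjusted p = 0.0678). The arrays of the groups did not overlap, with shPW1 higher, for 7 of the 10 genes, against 27.5% of all probe sets, and the median log2 fold change was 0.14.

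**Figure D3:**
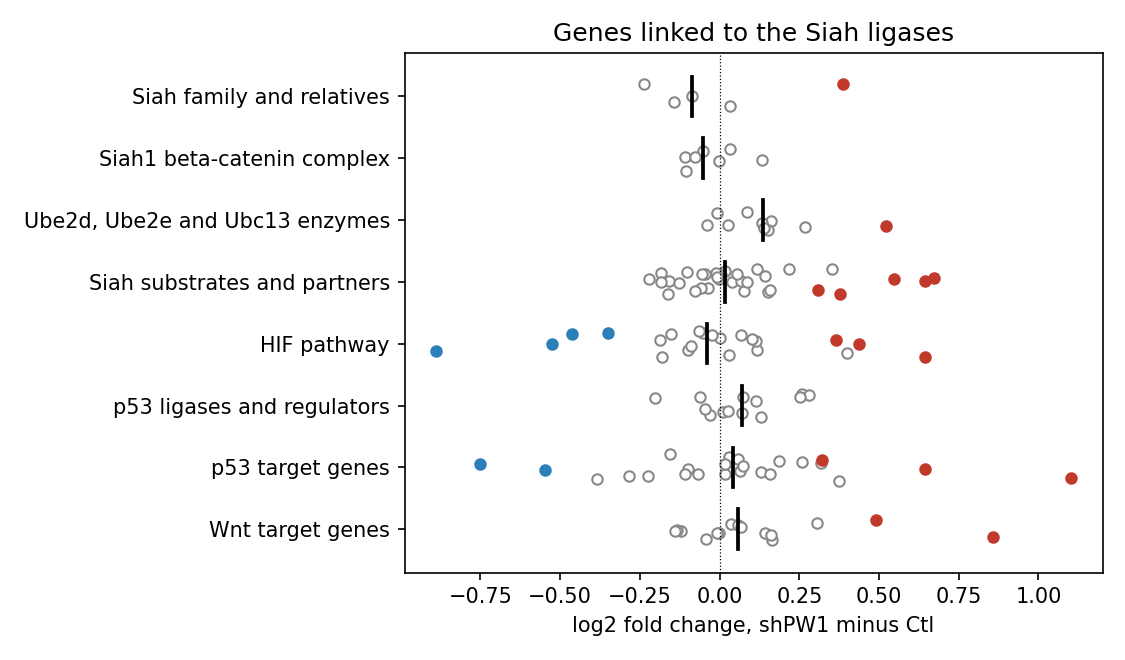
Log2 fold change (shPW1 minus Ctl, horizontal axis) of the genes of 8 lists linked to the Siah ligases (rows); each circle is one gene by its brightest probe set, filled red where higher and filled blue where lower at an adjusted p under 0.05, and the black bar is the median of the list. The 7 genes of the beta-catenin complex lie between -0.11 and 0.13, while the HIF list spans -0.89 to 0.64.

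Among 33 measured substrates and binding partners of Siah proteins, 5 were higher in shPW1 and 0 were lower (15.2% called, against 9.1% of all probe sets, with a median of 0.02). Without the dimmer probe sets 7 were higher and 3 lower, in a setting that called 39.5% of all probe sets it tested. With the trended robust prior, which called 21.6% of all, 8 were higher and 2 lower. Lats2, a kinase of the Hippo pathway and a Siah2 substrate, read 8.63 and 8.76 in the shPW1 arrays, against 8.07 and 7.98 in the Ctl arrays (change 0.67, SE 0.08, adjusted p = 0.0183). Egln3, the prolyl hydroxylase PHD3 and the best-known Siah2 substrate, had 8.38 and 8.43 in the shPW1 arrays, against 7.76 in both Ctl arrays (change 0.64, adjusted p = 0.0119). For both genes the groups were well apart beside the difference between replicates.

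The other called substrates had smaller changes. Cebpd, a stress-induced transcription factor, changed by 0.55 (adjusted p = 0.0283) but was dim, at 5.44 and 5.28 in the shPW1 arrays against 4.78 and 4.84 in the Ctl arrays. Akap1, which anchors protein kinase A at mitochondria, read 8.70 and 8.83 in the shPW1 arrays, against 8.39 in both Ctl arrays (change 0.38, adjusted p = 0.0429). Nfe2l2, the gene of the antioxidant regulator Nrf2, read 10.02 and 10.03 in the shPW1 arrays, against 9.72 and 9.71 in the Ctl arrays (change 0.31, adjusted p = 0.0418). Spry2, an inhibitor of receptor tyrosine kinase signalling, had 0.35 and did not pass (adjusted p = 0.0686). It was called when the dimmer probe sets were dropped (adjusted p = 0.0118), with array medians subtracted (adjusted p = 0.0327) and with the trended robust prior (adjusted p = 0.00274). The hydroxylases Egln1 (0.12) and Egln2 (0.14), the kinase Hipk2 (-0.04) and the Wnt scaffold Axin1 (-0.0025) were not called. Lower values were seen for Pml (-0.22) and Zyx (-0.18), neither of which passed the test.

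Genes of the HIF pathway, on which Siah2 acts through the hydroxylases, were called in both directions. Of 22 measured genes 3 were higher and 4 were lower (31.8% called, against 9.1% of all probe sets), with a median of -0.04. The list was bright, with median levels of 8.4 in shPW1 and 8.6 in Ctl, against 6.05 over all probe sets tested. A fit of the brighter probe sets alone called 39.5%, so 9.1% is a low background for bright lists. The substrates (8.3 and 8.2) and the p53 targets (7.8 in each group) were bright too. Bnip3, a HIF target that promotes mitophagy, read 7.29 and 7.38 in the shPW1 arrays, against 8.24 and 8.21 in the Ctl arrays, so it fell by 0.89 on the log2 scale (SE 0.06, adjusted p = 0.00781). Pdk1, the kinase that holds back pyruvate dehydrogenase, had 6.57 and 6.55 in the shPW1 arrays, against 7.08 in both Ctl arrays (change -0.53, adjusted p = 0.0165). Arnt, the HIF beta subunit, read 8.42 and 8.43 in the shPW1 arrays, against 8.90 and 8.88 in the Ctl arrays (change -0.46, adjusted p = 0.0202). P4ha1, a collagen prolyl hydroxylase, had a change of -0.35 (adjusted p = 0.0355).

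The 3 higher genes of the HIF list included a pair of hydroxylase genes, and a link between these rises and the falls was not tested. Egln3 is given above, and Hif1an, the asparaginyl hydroxylase FIH, read 8.38 and 8.41 in the shPW1 arrays, against 7.95 and 7.96 in the Ctl arrays (change 0.44, adjusted p = 0.0231). The third was the angiogenic factor Vegfa (0.37, adjusted p = 0.0388). Hif1a itself had 0.03 (adjusted p = 0.787), the glucose transporter Slc2a1 0.0009, Ldha -0.10 and Car9 -0.02, and none of these passed the test. The list mixes hydroxylases, HIF subunits and HIF targets and held no common direction. For Siah2 itself the groups overlapped.

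**Figure D4:**
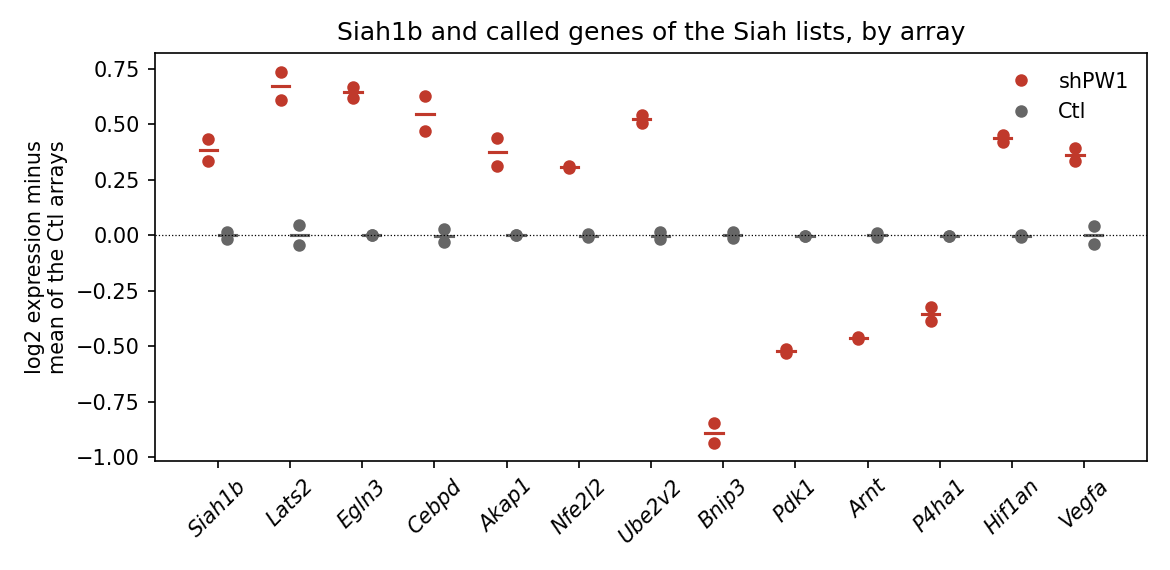
Expression of each array relative to the Ctl mean (log2 difference, vertical axis) of Siah1b and 12 called genes among the Siah substrates, E2 enzymes and the HIF pathway (horizontal axis); each point is one array (shPW1 red, Ctl grey) and each line the mean of a group. Both shPW1 arrays lie above the Ctl arrays for the genes from Siah1b to Ube2v2 and for Hif1an and Vegfa, and below them for Bnip3, Pdk1, Arnt and P4ha1.

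Siah1 is known as a p53-inducible gene, and other ligases and regulators of p53 were therefore read beside Siah1b. Of 13 measured genes limma called 0, and 0 passed the methods' thresholds. An unadjusted p under 0.05 was found for 4 of the 13, near the 27.7% of all probe sets. The p53 ligase Mdm2 read 9.75 and 9.73 in the shPW1 arrays, against 9.50 and 9.46 in the Ctl arrays (change 0.26, adjusted p = 0.0631). The p53 ligase Rchy1, also called Pirh2, had 0.28 (adjusted p = 0.0967). When the dimmer probe sets were dropped, a setting that called 39.5% of what it tested, both were called. The adjusted p was 0.00823 for Mdm2 and 0.0199 for Rchy1. With the trended robust prior both were called too, Mdm2 at an adjusted p of 0.000947 and Rchy1 at 0.00782. Mdm2 was also called with array medians subtracted (adjusted p = 0.0459). The median of the list was 0.07.

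Of 24 measured p53 target genes 3 were higher and 2 were lower (20.8% called, against 9.1% of all probe sets, with a median of 0.04). The p53 targets Cdkn1a and Bax lacked a probe set of 1 symbol and were not measured. Fas, a death receptor, read 6.34 and 6.64 in the shPW1 arrays, against 5.49 and 5.28 in the Ctl arrays (change 1.10, adjusted p = 0.0202). The kinase gene Plk2 read 11.14 and 11.22 in the shPW1 arrays, against 10.54 and 10.53 in the Ctl arrays (change 0.64, adjusted p = 0.0132). The other higher target was the translesion polymerase gene Polk (0.32). The stress-response gene Sesn1 (-0.55) and the desmosomal p53 target Perp (-0.75, at 5.13 and 4.72 in the shPW1 arrays against 5.69 and 5.66 in the Ctl arrays) were lower, and Perp did not pass the methods' thresholds. The cell death genes Bbc3 (0.02) and Pmaip1 (-0.10), which encode Puma and Noxa, missed the threshold. Both were dim. Bbc3 read 5.72 and 5.69 in the shPW1 arrays, against 5.70 and 5.67 in the Ctl arrays. Pmaip1 read 5.31 in both shPW1 arrays, against 5.38 and 5.43 in the Ctl arrays. The list held no common direction.

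The profile of Siah1b over the 4 arrays was compared with that of every other probe set, after each was centred on its own mean. The nearest 5 named genes by root mean square difference were the guidance receptor ligand Sema5a (0.0067), the red cell membrane protein gene Gypc (0.0068), Ect2l (0.0077), the splicing factor gene Sf3a2 (0.0091) and the matricellular factor Ccn2 (0.0101), in log2 units. Their log2 fold changes were 0.38 for Sf3a2, Ccn2 and Sema5a and 0.39 for Gypc and Ect2l, and Ect2l was dim (2.95 and 3.06 in the shPW1 arrays, 2.61 in both Ctl arrays). Within 0.1 of Siah1b lay 1992 probe sets, so with 4 arrays the profile was shared far beyond these genes.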

How the data were processed

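RNA from 2 shPW1 and 2 Ctl extractions was hybridized, 1 array each. The deposited values are log2 expression, already background-corrected, normalized and summarized by RMA, which the authors ran with Partek Genomics Suite (6.4 by the processing notes of the submitters), and these steps were not repeated here. Of 35556 rows, those with exactly 1 symbol (21789 probe sets) were tested, leaving out 1621 with several and 12146 with none. Symbols of 21698 were matched to RefSeq. The test was limma (version 3.58.1, R 4.3.3, 2 residual and 2.72 prior degrees of freedom), two-sided, Benjamini-Hochberg adjusted over every probe set tested. It was checked on simulated arrays. The files hold no detection calls, and precision is limited by the number of arrays.

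The members and gene lists were chosen with earlier results of these data known. Named genes are all Siah probe sets, Peg3 and its partners, the beta-catenin complex, up to 4 called members of each list by size of change (otherwise the 2 largest) and the 5 nearest profiles to Siah1b. Nfe2l2, P4ha1, Hif1an, Vegfa, Polk, the genes with a PW1 motif and uncalled list members outside this rule were chosen for naming once their values had been seen, and neighbours were taken by position. A gene with several probe sets counted by its brightest. Motifs were searched in the RefSeq promoter table. Other settings tried were dropping the dimmer probe sets, testing all rows, quantile normalizing once more, subtracting each array's median, a trended robust prior variance, the analysis of variance of the methods, a replicate block, and each array left out in turn.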

Additional observations from a re-analysis of the deposited data

How the results depend on the processing

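With each array left out, the log2 fold change of Siah1b lay between 0.34 and 0.43 and that of Peg3 between -2.47 and -2.21, both uncalled, Siah2 lay between -0.011 (sign turned, without shPW1 replicate 2) and 0.078, and 0 probe sets were called higher and 0 lower. Siah1b was also uncalled with all rows tested (change 0.39, adjusted p = 0.112), with the methods' analysis of variance after adjustment (0.39, adjusted p = 0.15) and with the replicate number as a block (0.39, adjusted p = 0.0826), and Peg3 with the adjusted analysis of variance (-2.34, adjusted p = 0.105). Probe sets called higher and lower numbered 2504 and 1799 with dim probe sets left out, 36 and 50 with all rows tested, 2735 and 1978 with a trended robust prior, 1 and 1 by the adjusted analysis of variance, and 256 and 258 with the replicate block. Subtraction of array medians gave 1627 higher and 759 lower (68.2% higher, against 54.2% without it) and put the median of all probe sets at 0.05, against -0.01 without it. The extractions share only a number, the deviations of same-numbered arrays correlated at -0.105, and a block on crossed numbers, chosen after seeing the data, called 213 higher and 224 lower.

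Among 58 other named genes 13 values became called, 270 lost their call and 11 changed sign under an alternative. Ctnnb1 turned to 0.0061 and Tbl1x to 0.055 and Car5b to 0.0065 with array medians subtracted, and Skp1 to -0.0073 when quantile normalized again. With each array left out the ranges crossed zero for Ptprc (-0.016 to 0.554), S100a6 (-0.16 to 0.0049), Skp1 (-0.0084 to 0.074), Tbl1x (-0.0205 to 0.014), Car5b (-0.179 to 0.075) and Bmx (-0.17 to 0.00398). Other lists that gained calls included the E2 enzymes, the HIF pathway, the p53 ligases and the p53 targets. Dropping the dimmer probe sets called 39.5% of all probe sets tested, among them 3 higher E2 enzymes. It also called 3 higher and 5 lower HIF genes, 3 higher and 1 lower p53 ligases, and 6 higher and 4 lower p53 targets. The trended robust prior called 21.6% of all probe sets, among them 3 higher E2 enzymes and 3 higher p53 ligases. It also called 3 higher and 6 lower HIF genes, and 8 higher and 5 lower p53 targets. The cause of these changes was not tested.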
